A study of Mus musculus with 8 samples.

Results

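The lymphatic vessel genes described here are 9 genes chosen by name: the growth factors Vegfc and Vegfd, their receptor Flt4, the transcription factor Prox1, the surface proteins Lyve1 and Pdpn, and the secreted proteins Ccl21a, Reln and Mmrn1. All 9 were found by identifier among the 52325 genes of the deposited count table, and all 9 passed the filter on low counts. They were chosen with the genotype contrast of these same libraries in view, so their differences between genotypes are given below as a description, with no test. The libraries came from endometrium, the inner lining of the uterus, which was cut by laser capture microdissection from frozen uterine sections of 4 WT and 4 Thra1PV/+ female mice, all in metestrus, and sequenced as stranded mRNA. Thra1PV/+ mice carry the dominant negative PV mutation in 1 allele of Thra, the gene of thyroid hormone receptor α1, in every cell of the body, and WT mice carry no mutant allele. The comparison asks how this mutation alters gene expression of the endometrium. The ages of the sequenced mice are not given in the sources used here, and counts per gene do not separate the mutant from the normal Thra allele, so the genotype labels were not checked. Each library is 1 mouse and is named below by its genotype and number.

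Lymphatic vessels return fluid and immune cells from tissue to the blood. Vegfc and Vegfd bind the receptor VEGFR3, encoded by Flt4, on lymphatic endothelial cells and make the vessels grow, and Prox1 gives these cells their identity. Lymphatic endothelium carries Lyve1 and podoplanin on its surface and releases CCL21, the chemokine that leads CCR7-bearing dendritic cells and T cells into the vessel. In the mouse uterus lymphatic vessels lie largely in the myometrium, the muscle wall under the endometrium. Several of these genes are also used by other cells, Lyve1 by some macrophages and Pdpn by fibroblasts and basal squamous cells.

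1 library, WT library 1, stood apart from the other 7 in its smooth muscle transcripts. The summed level of 10 smooth muscle genes, in CPM (read counts scaled to library depth, here by TMM), was 13222 in WT library 1 and 576 to 1157 in the other WT libraries, so WT library 1 held 11.4 times the highest of them. In the Thra1PV/+ libraries the same sum ran from 147 to 689. Acta2, smooth muscle actin, was at 4154 CPM in WT library 1, 126 to 297 CPM in the other WT libraries and 17.5 to 186 CPM in the Thra1PV/+ libraries. All 10 smooth muscle genes were highest in WT library 1 and all 10 had a negative log2 fold change (Thra1PV/+ over WT), with a median of -3.96, or -1.44 without WT library 1. None was called by edgeR, which called 0.99% of all tested genes, and 10 had an unadjusted p under 0.05, beside 9.77% of all tested genes. DESeq2 gave an adjusted p to 2 of the 10, Des and Synm, and called Synm, and it gave none to the other 8. The log2 fold changes below are therefore also given without WT library 1 wherever it moved them. Library totals ran from 48791602 to 59818887 counts.

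The sums of the other marker lists did not set WT library 1 apart in this way. Summed blood endothelium transcripts were 406 CPM in WT library 1, within the 281 to 673 CPM of the WT libraries and beside 197 to 408 CPM in the Thra1PV/+ libraries. The 673 CPM was WT library 2, where 1 gene of the list, Sox17, made up 355 CPM. In WT library 1 Sox17 was at 77.5 CPM. Stromal transcripts were at 4649 CPM in WT library 1, at 4567 CPM in WT library 2 and at 4759 CPM in Thra1PV/+ library 1, and at 343 to 1553 CPM in the other 5. The macrophage list ran from 143 to 436 CPM in Thra1PV/+ and from 162 to 313 CPM in WT endometrium. Gene by gene, WT library 1 was the highest library for 6 of 11 tested blood endothelium genes. The same held for 4 of 7 stromal and 2 of 6 tested macrophage genes, beside 19.1% of all tested genes. It held for no tested gene of the squamous, mesothelium and lymphoid stroma lists. The list of basal squamous epithelium did not overlap between genotypes, at 2460 to 3930 CPM against 24.5 to 139 CPM, and edgeR called 6 of its 7 genes higher in Thra1PV/+ endometrium. Over the 70 arrangements of 4 against 4 libraries, the two-sided exact permutation test gave p = 0.0286 for the squamous list, the smallest p this design allows. The marker lists were chosen with earlier results of these libraries known, so these p-values describe the lists and are not independent evidence. The same exact permutation test gave p = 0.0857 for smooth muscle, 0.2 for stroma, 0.457 for blood endothelium and 0.857 for macrophages. Mesothelium, the outer covering of the uterus, summed to 3.95 to 4.35 CPM against 0.398 to 4.55 CPM (exact permutation p = 0.143). Of its 6 genes, 2 passed the filter on low counts, and the 1 called gene, Bnc1, is also a gene of basal epithelium. Genes of lymphoid stroma and high endothelial venules, which would mark a lymph node, summed to 0.63 to 1.08 CPM against 0.159 to 1.74 CPM (exact permutation p = 0.657). Of these, Chst4 was at 0 in all 8 libraries and Glycam1 did not exceed 0.0191 CPM in any library.

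All 9 genes of the set were detected, at widely different levels. Per unit of transcript length, in the deposited TPM values, Pdpn had the highest median over the 8 libraries, 29.8 TPM. Vegfd and Ccl21a followed at 1.72 and 1.71 TPM, Vegfc at 0.718 TPM, Flt4 at 0.551 TPM and Lyve1 at 0.318 TPM. Prox1 at 0.101 TPM, Reln at 0.0349 TPM and Mmrn1 at 0.0321 TPM were the lowest. Each gene's range over the libraries overlapped that of its neighbour in this order. For Pdpn and Vegfd the overlap came from WT library 1, where Vegfd reached 10.8 TPM. Without that library the lowest Pdpn level, 7.83 TPM, lay above the highest Vegfd level, 3.25 TPM.

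**Figure D1:**
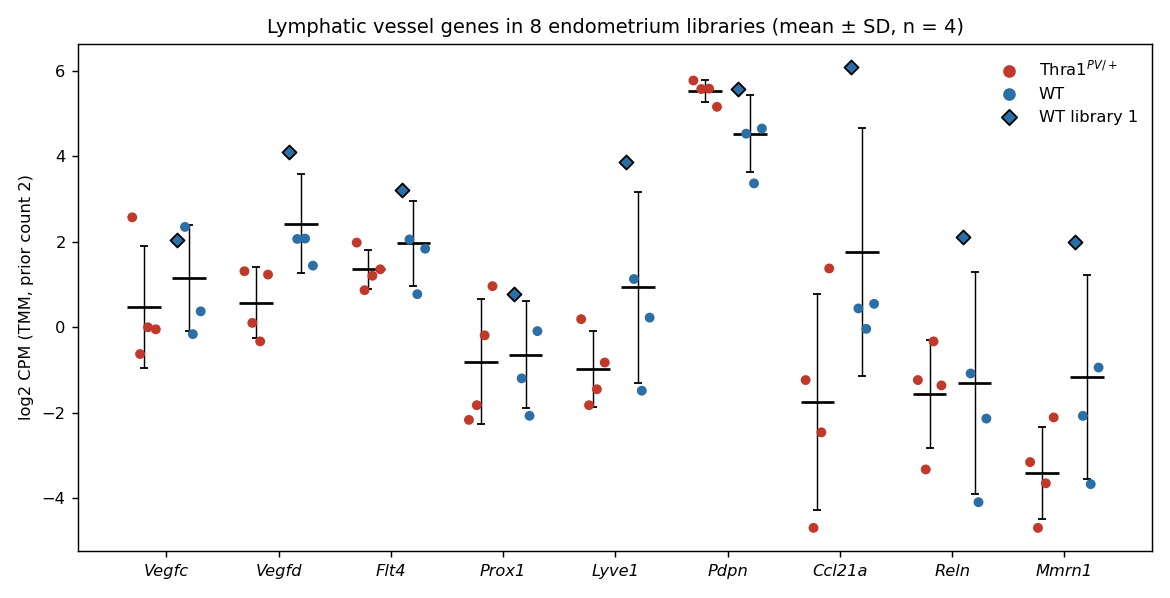
Level of each lymphatic vessel gene in every library, as log2 CPM after TMM scaling with a prior count of 2 (y axis), for Thra1PV/+ (red) and WT (blue) endometrium, with horizontal bars at the mean and whiskers of 1 SD (n = 4 mice). The diamond is WT library 1, which is the highest of the 8 libraries for Vegfd, Flt4, Lyve1, Ccl21a, Reln and Mmrn1, and Ccl21a there lies at 6.09 against -0.04 to 0.55 in the other WT libraries.

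Over the 9 genes, 7 had a negative and 2 a positive log2 fold change, with a median of -1.67 beside -0.05 over all 18174 genes tested. Without WT library 1 the median was -0.20 beside 0.00 over all genes, and 6 of the 9 were negative. None of the 9 genes was called by the edgeR quasi-likelihood test at a fold change of 2 and an adjusted p of 0.1, where 0.99% of all tested genes were called (0.924% higher and 0.066% lower in Thra1PV/+ endometrium). An unadjusted p under 0.05 in the lower direction was found for 4 of them (Vegfd, Lyve1, Ccl21a and Mmrn1) and for 4.72% of all tested genes, while none of the 9, against 5.05% of all tested genes, had one in the higher direction. DESeq2 called 3, Vegfd, Lyve1 and Mmrn1, all lower, and 3.64% of the genes for which it gave an adjusted p (1.04% in the lower direction). Without WT library 1, edgeR called none of the 9 genes and 0.901% of all tested genes. DESeq2 then called 1, Pdpn, and 3.51% of the genes for which it gave an adjusted p. 6 of the 9 genes had their highest level in WT library 1, as did 19.1% of all tested genes. Since the genes were picked from this contrast, these counts describe the set and carry no test of it. In RNA from bulk tissue, fewer lymphatic cells and less RNA of a gene in each cell cannot be told apart.

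**Figure D2:**
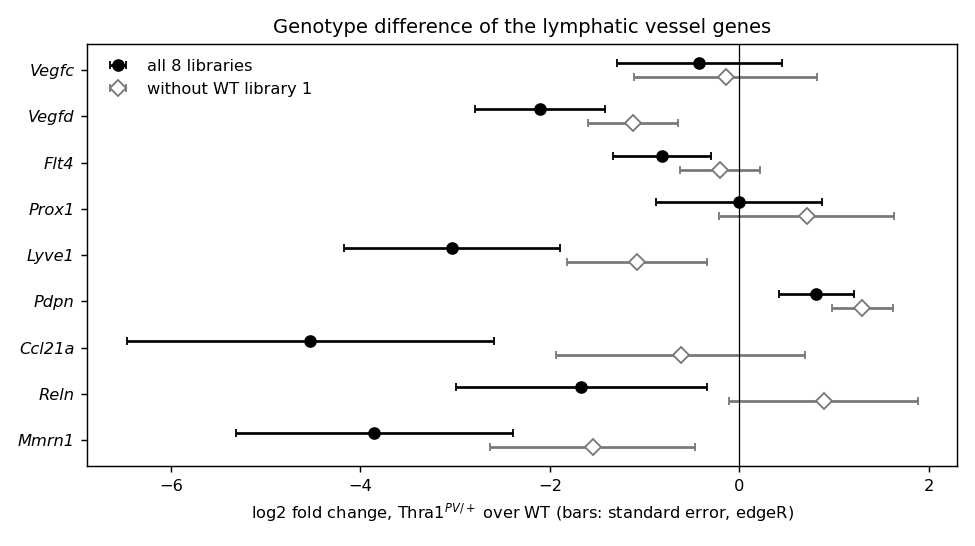
Log2 fold change of each lymphatic vessel gene, Thra1PV/+ over WT (x axis), with its standard error from edgeR as bars, for all 8 libraries (filled circles) and without WT library 1 (open diamonds). Leaving that library out moves Ccl21a from -4.53 to -0.62, turns Reln from -1.67 to 0.89 and raises Pdpn from 0.82 to 1.30.

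Among the ligands, Vegfc, the main lymphatic growth factor (ENSMUSG00000031520.6, GRCm38 chromosome 8, 54077606 to 54187096, plus strand), was high in 3 libraries and low in 5. It measured 5.91, 0.609, 0.96 and 0.928 CPM in Thra1PV/+ libraries 1 to 4. In WT libraries 1 to 4 it measured 4.08, 5.06, 0.855 and 1.26 CPM. The genotypes overlapped fully, and the 3 high libraries were also the 3 with the most Col1a1, a fibrillar collagen of the stroma, in the same order. The mean was 2.10 ± 2.55 CPM in Thra1PV/+ and 2.81 ± 2.07 CPM in WT endometrium (SD, n = 4). This was a log2 fold change of -0.42 (SE 0.87), or -0.14 (SE 0.96) without WT library 1. The value depended more on Thra1PV/+ library 1, without which it was -1.70.

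Vegfd, the second ligand of VEGFR3 (ENSMUSG00000031380.10, chromosome X, 164373378 to 164402650, plus strand), was the 1 gene of the set whose genotypes did not overlap, all Thra1PV/+ libraries lying lower. Its levels were 2.44, 1.03, 0.756 and 2.31 CPM in Thra1PV/+ libraries 1 to 4 and 17.2, 4.15, 4.18 and 2.68 CPM in WT libraries 1 to 4. The gap was narrow, since WT library 4 exceeded Thra1PV/+ library 1 by little, and with scaling by library size alone these 2 libraries changed order, at 2.58 and 2.73 CPM. Of all tested genes, 2.49% had no overlap in this direction and 3.55% had none in the other. The log2 fold change was -2.10 (SE 0.69) with all libraries and -1.12 (SE 0.48) without WT library 1. The WT mean was 7.05 ± 6.79 CPM (SD, n = 4), or 3.67 ± 0.858 CPM (n = 3) without that library, beside 1.64 ± 0.864 CPM (n = 4) in Thra1PV/+ endometrium. Leaving out any 1 of the 8 libraries kept the value between -2.37 and -1.12.

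Flt4, the receptor of both ligands (ENSMUSG00000020357.3, chromosome 11, 49609263 to 49652739, plus strand), varied least across the libraries apart from Pdpn. It was at 3.91, 1.79, 2.27 and 2.52 CPM in Thra1PV/+ libraries 1 to 4 and at 9.18, 4.12, 1.67 and 3.54 CPM in WT libraries 1 to 4. WT library 1 was the highest and WT library 3 the lowest of all 8, so the genotypes overlapped. With all libraries its log2 fold change was -0.82 (SE 0.52), and it was -0.20 (SE 0.42) without WT library 1.

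Prox1, the factor that sets lymphatic endothelial identity (ENSMUSG00000010175.13, chromosome 1, 190118035 to 190170714, minus strand), had its highest level in a Thra1PV/+ library. It measured 0.184, 0.244, 0.838 and 1.91 CPM in Thra1PV/+ libraries 1 to 4 and 1.68, 0.397, 0.199 and 0.9 CPM in WT libraries 1 to 4, on 10 to 109 counts. Thra1PV/+ library 4 was followed by WT library 1, and both genotypes held low libraries. Its log2 fold change was 0.00 (SE 0.88) and ran from -0.91 without Thra1PV/+ library 4 to 0.71 without WT library 1, so no direction could be given. Prox1 overlaps antisense transcripts, and whether the counting used strand is not given in the sources used here.

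Lyve1, the hyaluronan receptor of lymphatic endothelium (ENSMUSG00000030787.4, chromosome 7, 110850607 to 110863239, minus strand), was low in 7 libraries and high in WT library 1. It was at 1.10, 0.244, 0.327 and 0.525 CPM in Thra1PV/+ libraries 1 to 4. In WT libraries 1 to 4 it was at 14.5, 2.15, 0.318 and 1.13 CPM, so WT library 1 held 6.73 times the next WT library, and WT library 3 lay among the Thra1PV/+ libraries. The log2 fold change was -3.03 (SE 1.14) with all libraries and -1.08 (SE 0.74) without WT library 1, where the WT mean was 1.20 ± 0.917 CPM beside 0.549 ± 0.387 CPM. Set against Pecam1, an adhesion protein of all endothelium, Lyve1 was 21.9% of the Pecam1 level in WT library 1 and 0.878% to 3.71% in the other 7 libraries. Flt4 was 13.9% of the Pecam1 level in WT library 1 and 5.56% to 9.86% elsewhere.

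Pdpn, or podoplanin (ENSMUSG00000028583.14, chromosome 4, 143267431 to 143299564, minus strand), had the highest positive log2 fold change of the set. It was at 54.8, 47.7, 48 and 35.8 CPM in Thra1PV/+ libraries 1 to 4 and at 47.4, 23.1, 10.3 and 25.1 CPM in WT libraries 1 to 4. WT library 1 lay within the Thra1PV/+ range, and the other 3 WT libraries lay below every Thra1PV/+ library. The mean was 46.6 ± 7.93 CPM in Thra1PV/+ and 26.5 ± 15.4 CPM in WT endometrium (SD, n = 4). Its log2 fold change was 0.82 (SE 0.40), and 1.30 (SE 0.32) without WT library 1. The basal squamous list was high in the same 4 Thra1PV/+ libraries but lowest of all, at 24.5 CPM, in WT library 1. The part of squamous cells in the Pdpn level was not tested.

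Ccl21a, the CCL21 chemokine gene (ENSMUSG00000094686.1, chromosome 4, 42772860 to 42773993, minus strand), had the largest spread. It measured 0.385, 0, 0.152 and 2.55 CPM in Thra1PV/+ libraries 1 to 4. The 0 counts in Thra1PV/+ library 2 allow a level of up to 0.0609 CPM, taking 3 counts as the floor for counting error. In WT libraries 1 to 4 it measured 68.3, 1.32, 0.944 and 1.43 CPM, so WT library 1 held 47.7 times the next WT library. Thra1PV/+ library 4 lay above the other 3 WT libraries, and the remaining 3 Thra1PV/+ libraries lay below all WT libraries. The log2 fold change was -4.53 (SE 1.94) with all libraries, -0.62 (SE 1.32) without WT library 1 and -6.64 without Thra1PV/+ library 4. DESeq2 gave no p for Ccl21a.

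The Ccl21a count carries a further uncertainty, because the mouse genome holds near-identical copies of the gene and the authors' counting split reads between them. Of the 840 stretches of 31 bases in the Ccl21a transcript, 80.6% also occur in a copy. The coding sequences of Ccl21a and of the copy Gm21541, each of 402 bases, differ at 2 positions counted from 1 at the first base of the start codon, T84A in exon 2 (Ccl21a base at chromosome 4, 42773747) and C194T in exon 3 (42773543). The bases around both are shown, from the GENCODE M21 transcripts (GRCm38) in the direction of the coding strand, since within the coding sequence only reads that cross them tell the genes apart, and the capital marks the differing base.
Ccl21a, coding positions 54 to 114: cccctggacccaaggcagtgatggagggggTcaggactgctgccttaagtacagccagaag
Gm21541, coding positions 54 to 114: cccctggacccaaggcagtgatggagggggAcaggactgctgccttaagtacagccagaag
Ccl21a, coding positions 164 to 224: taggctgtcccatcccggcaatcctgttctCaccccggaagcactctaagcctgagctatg
Gm21541, coding positions 164 to 224: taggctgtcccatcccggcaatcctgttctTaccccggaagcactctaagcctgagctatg

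In the count table, Ccl21a held 70% to 83.9% of the reads assigned to the copies in the 7 libraries that had any. WT library 1 had 3577 estimated counts on Ccl21a and 1184 on Gm21541, while Gm13304, another copy, had 0 there and 50.7 in Thra1PV/+ library 4. Ccl21b had 0 in all 8 libraries. Summed over the copies, the counts were 25, 0, 9 and 208 in Thra1PV/+ libraries 1 to 4 and 4762, 101, 58 and 97 in WT libraries 1 to 4, so the order of the libraries within each genotype was that of the Ccl21a counts. The summed log2 fold change was -4.47, and -0.59 without WT library 1.

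Reln, the secreted glycoprotein reelin (ENSMUSG00000042453.14, chromosome 5, 21884454 to 22344702, minus strand), had a negative value with all libraries and a positive one without WT library 1. It was at 0.386, 0.0609, 0.756 and 0.35 CPM in Thra1PV/+ libraries 1 to 4 and at 4.31, 0.433, 0.0199 and 0.188 CPM in WT libraries 1 to 4. Reln had a log2 fold change of -1.67 (SE 1.32) with all libraries and 0.89 (SE 0.997) without WT library 1. Mmrn1, the platelet and endothelial protein multimerin (ENSMUSG00000054641.10, chromosome 6, 60924976 to 60989378, plus strand), was at 0.0734, 0, 0.0409 and 0.193 CPM in Thra1PV/+ libraries 1 to 4, where 3 counts correspond to between 0.0525 and 0.0613 CPM. In WT libraries 1 to 4 it was at 3.93, 0.199, 0.0398 and 0.481 CPM, on 206, 11, 2 and 23 counts. Its log2 fold change was -3.85 (SE 1.46), and -1.55 (SE 1.08) without WT library 1. Outside WT library 1 neither gene exceeded 37 counts in a library, and differences of that size were not resolved at this depth.

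**Figure D3:**
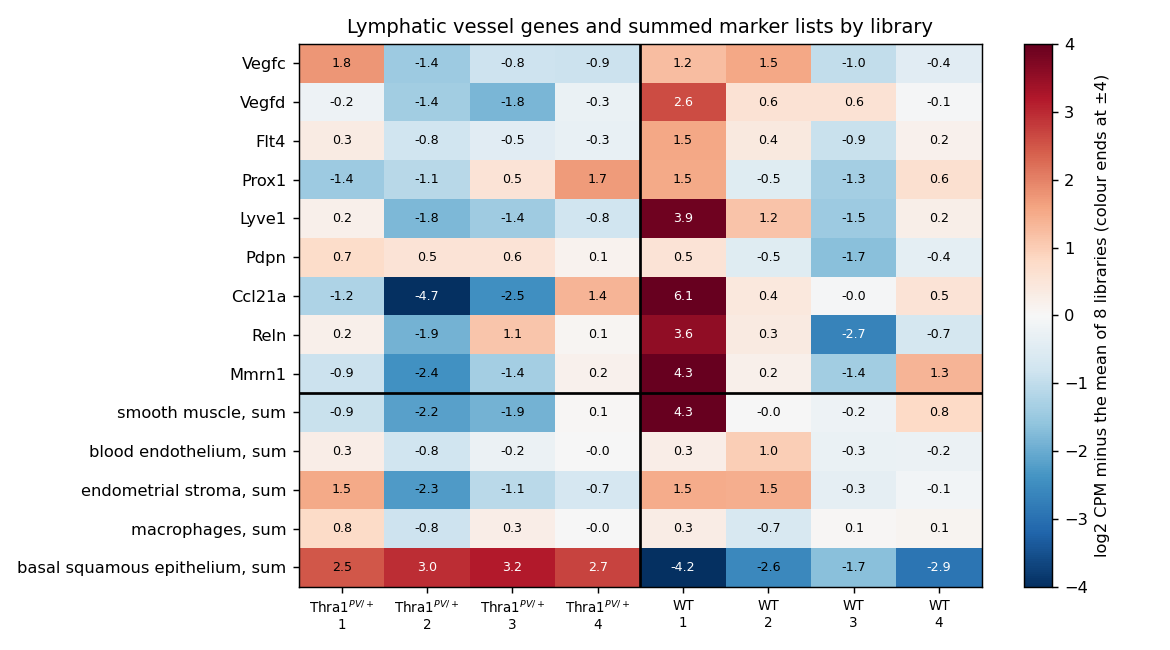
Log2 CPM of each lymphatic vessel gene (above the line) and of each summed marker list (below it), as the difference from the mean of the 8 libraries, with the library on the x axis and the value printed in each cell. Lyve1, Ccl21a, Reln and Mmrn1 share their highest cell, WT library 1, with the smooth muscle sum, while Vegfc follows the stromal sum and Pdpn is above its mean in all 4 Thra1PV/+ libraries.

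The genes of the set varied together to different degrees. After subtraction of each genotype mean from log2 CPM, the 10 pairs among Lyve1, Flt4, Ccl21a, Reln and Mmrn1 had a Pearson r of 0.741 to 0.988 over the 8 libraries, while the lowest of all 36 pairs was -0.083, for Vegfc and Prox1. All points share the same 8 libraries, and WT library 1 is an extreme point of each of the 10 pairs. Summed over Lyve1, Prox1, Flt4, Reln and Mmrn1, the level was 5.66, 2.33, 4.23 and 5.50 CPM in Thra1PV/+ libraries 1 to 4 and 33.6, 7.29, 2.25 and 6.24 CPM in WT libraries 1 to 4. As a share of the summed blood endothelium list this was 1.19% to 1.63% in Thra1PV/+ endometrium, 8.26% in WT library 1 and 0.799% to 2.15% in the other WT libraries. Apart from WT library 1, the genotypes overlapped on this scale.

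The 13366 candidate genes were those whose log2 CPM averaged 1 or more, without the genes of the set and the Ccl21a copies. Among them, the 5 whose pattern was most like that of Ccl21a, by Pearson r of the same genotype-centred values over 8 libraries, were Acta2 (r = 0.978), Sap30l (0.977), Lmod1 (0.976), Upb1 (0.974) and Cacnb2 (0.970). Without WT library 1 these r values lay between 0.951 and 0.963, with 0.960 for Acta2. The median r with Ccl21a over the 9 smooth muscle genes among the candidates was 0.963. The 5 candidates most like Lyve1 were Brsk1 (0.993), Gas1 (0.990), Atp2b4 (0.990), Agap2 (0.989) and Rgs2 (0.988), and its median r with the smooth muscle genes was 0.820. Flt4, left out of the candidates as a gene of the set, had r = 0.9885 with Lyve1, just above Rgs2 at 0.9882. The order of the libraries by Ccl21a was that by Acta2 with 1 exchange of neighbours, Thra1PV/+ library 4 and WT library 4. Ccl21a thus tracked smooth muscle actin within both genotypes, and what this shared pattern comes from was not tested.

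**Figure D4:**
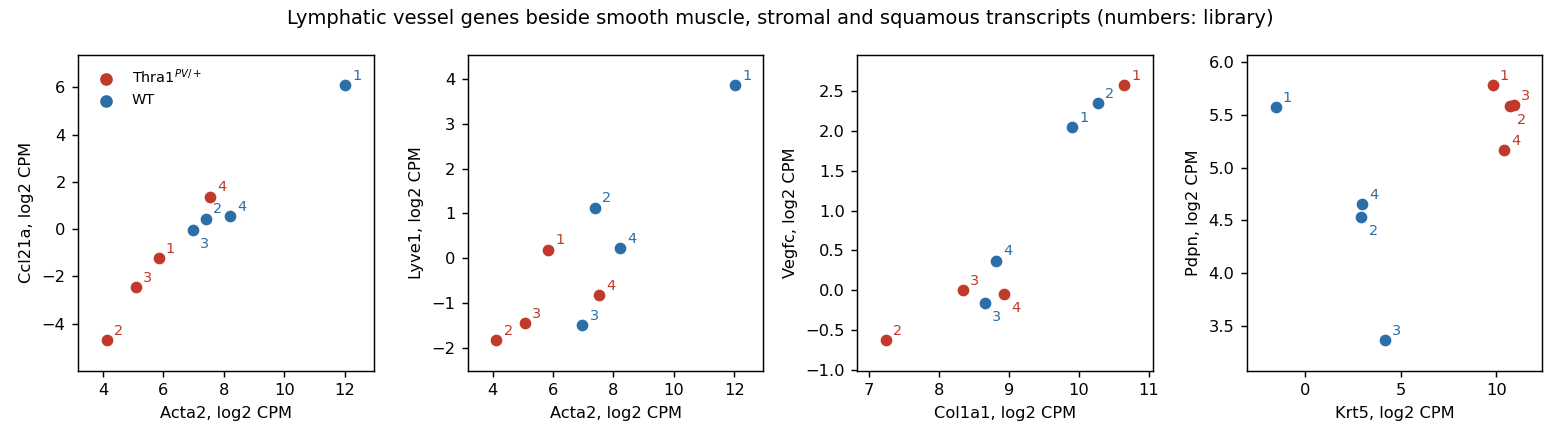
Ccl21a and Lyve1 against Acta2, Vegfc against Col1a1, and Pdpn against Krt5, each axis in log2 CPM, with 1 point per library (red Thra1PV/+, blue WT, numbers giving the library). Ccl21a climbs with Acta2 across all 8 libraries, Lyve1 is more scattered, Vegfc is high in the 3 libraries highest in Col1a1, and Pdpn is high in WT library 1 although Krt5 is lowest there.

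The rest of the lymphatic pathway was read from 5 lists with 42 genes, of which 38 passed the filter. EdgeR called none of the 38 at a fold change of 2, beside 0.99% of all tested genes. An unadjusted p under 0.05 was found for 2 higher and 5 lower genes, beside 5.05% and 4.72% of all tested genes. DESeq2 called 3 (Nfatc1, Tbx1 and Angpt2), beside 3.64% of the genes for which it gave an adjusted p. Without WT library 1, DESeq2 called none of the pathway genes, beside 3.51% of the genes for which it gave an adjusted p. The log2 fold change was negative for 31 and positive for 7, with a median of -0.40, or -0.14 without WT library 1. Of the 38 tested genes, 16 were highest in WT library 1, beside 19.1% of all tested genes. Across all tested genes, 9.77% had an unadjusted p under 0.05 in either direction.

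In the list of VEGF-C processing and receptors, none of the 9 genes was called by edgeR, beside 0.99% of all tested genes. The median log2 fold change of the list was -0.15, or -0.12 without WT library 1. Pgf, placental growth factor, had the largest positive value, 0.28 (SE 0.48, edgeR adjusted p = 0.904), or 0.53 without WT library 1. Nrp2, the co-receptor that helps VEGFR3 bind Vegfc, stood at 14.5 to 31.6 CPM in Thra1PV/+ and 19.6 to 65.6 CPM in WT endometrium, for a log2 fold change of -0.98 (SE 0.39, edgeR adjusted p = 0.472), or -0.60 without WT library 1. Ccbe1 and Adamts3, which process Vegfc into its active form, were at 0.955 to 2.74 and 0.378 to 2.80 CPM in WT endometrium and overlapped between genotypes. For Adamts3 the 2.80 CPM was WT library 1, and its log2 fold change was -1.48 (SE 0.97), or -0.56 without that library.

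Of the 12 lymphatic fate and valve regulators, 11 were tested and their median log2 fold change was -0.31 with 8 negative, or -0.10 with 7 negative without WT library 1. Nfatc1, a transcription factor of lymphatic and heart valves that is also used in lymphocytes and epithelial stem cells, was at 31.4, 32.8, 36.6 and 29.4 CPM in Thra1PV/+ libraries 1 to 4 and at 14.9, 14.7, 18 and 17.7 CPM in WT libraries 1 to 4. It was the 1 gene of the 5 lists to pass the adjusted p alone (log2 fold change 0.996, SE 0.14, edgeR adjusted p = 0.0202), as 1.04% of all genes did, and it missed the 2-fold limit by little. Its value did not rest on WT library 1, being 0.998 without it (edgeR adjusted p = 0.042). Tbx1, a regulator of lymphatic growth, was at 0.0184 to 0.204 CPM in Thra1PV/+ and 0.279 to 1.51 CPM in WT endometrium. It had no overlap, as did 2.49% of all tested genes in this direction. Its log2 fold change was -2.85 (SE 0.79, edgeR adjusted p = 0.256), or -2.33 without WT library 1. Gata2, a factor of lymphatic valves, had a log2 fold change of -1.07 (SE 0.37, edgeR adjusted p = 0.384), with 80.1 to 110 CPM against 109 to 346 CPM, and -0.97 without WT library 1. Prox1 did not exceed 1.91 CPM in any library, and which cells gave the Gata2 level was not tested.

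All 4 genes of the angiopoietin and TIE axis, which remodels vessels after they form, had negative log2 fold changes. Their median was -1.11, or -0.77 without WT library 1, and none was called by edgeR, beside 0.99% of all tested genes. Tek, the TIE2 receptor, had the lowest value at -1.84 (SE 0.86, edgeR adjusted p = 0.549), with 76.9 CPM in WT library 1 and 6.13 to 17.3 CPM in the other WT libraries, and stood at -0.50 without WT library 1. Tie1 had a value of -0.29 (SE 0.39, edgeR adjusted p = 0.871), or -0.08 without it. Angpt2, the ligand of that axis needed for lymphatic patterning, was at 1.26 to 2.73 CPM in Thra1PV/+ and 2.69 to 5.17 CPM in WT endometrium. Its log2 fold change of -1.08 (SE 0.34, edgeR adjusted p = 0.341) was nearly the same without WT library 1, at -1.04.

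Of 7 further lymphatic endothelial markers, 5 were tested, with a median of -0.45 that became 0.06 without WT library 1. Clca3a1, a lymphatic surface protein also found in epithelium, stood at 7.82 to 24.2 CPM in Thra1PV/+ and 2.32 to 12.6 CPM in WT endometrium, for a log2 fold change of 1.32 (SE 0.57, edgeR adjusted p = 0.501). Klhl4 had a value of -0.45 (SE 0.83, edgeR adjusted p = 0.911), or 0.06 without WT library 1. Among 10 genes of lymphatic trafficking, 9 were tested, all with negative values and a median of -0.48, while without WT library 1 6 were negative and the median was -0.18. Cxcl12, a chemokine of stroma and lymphatic endothelium, ran from 4.77 to 61.4 CPM in Thra1PV/+ and from 22.9 to 247 CPM in WT endometrium, the 247 CPM being WT library 1, for a log2 fold change of -2.11 (SE 0.91, edgeR adjusted p = 0.505), or -1.31 without that library. Sphk2, a kinase that makes sphingosine 1-phosphate, had a value of -0.01 (SE 0.15, edgeR adjusted p = 0.992). Ccr7, the receptor for CCL21, was at 0.368 to 1.34 CPM in Thra1PV/+ and 0.0361 to 3.26 CPM in WT endometrium and was also highest in WT library 1. Ccl19, the other CCR7 ligand, did not exceed 0.115 CPM in any library.

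**Figure D5:**
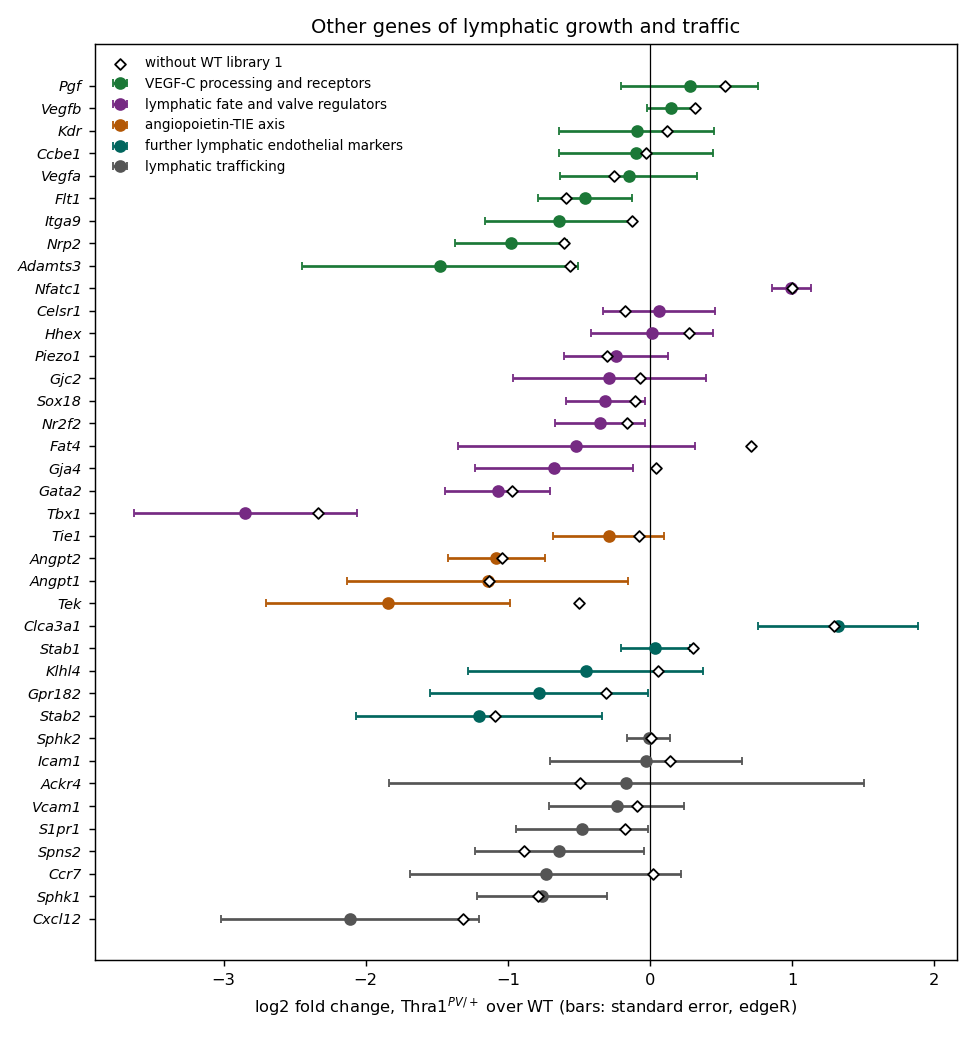
Log2 fold change, Thra1PV/+ over WT (x axis), of the 38 tested genes of lymphatic growth and traffic, coloured by list, with the edgeR standard error as bars and the value without WT library 1 as open diamonds. Nfatc1 at 0.996 is the gene that passed the adjusted p, and Tek moves from -1.84 to -0.50 when WT library 1 is left out.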

How the data were processed

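Per the study's methods, the authors removed adapters and poor bases with Trimmomatic and quantified transcripts with salmon for mm10. Neither the salmon version nor the annotation is given in the sources used here. The authors deposited estimated counts per gene (expected counts, not normalized) and TPM values, which were the same in all libraries when sorted, to within 0.29 TPM, and so had been quantile-normalized. 1 column of values in the TPM table, which held negative values, was not used.

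Estimated counts were rounded and tested with edgeR 4.0.16 (R 4.3.3, limma 3.58.1). FilterByExpr (minimum count 10, minimum total 15) kept 18174 genes, TMM scaled the libraries, and the quasi-likelihood test had genotype as its sole term. Calls required a fold change of 2 and a Benjamini-Hochberg adjusted p of 0.1 over all genes tested. The prior count for log2 CPM was 2. DESeq2 1.42.0 was the main alternative, and a gene to which it gave no adjusted p was not counted as called. On simulated counts with 200 genes changed by a factor of 4, among 17820 genes, 74.5% were recovered and 6.88% of the calls were false. The changed genes were drawn from those with a mean above 2 CPM, and no simulated library was made to stand apart as WT library 1 did. Prox1, Reln and Mmrn1 had means below that level, so the 74.5% does not cover them. Nor is it the rate for any single gene of the set, being an average over the 200 changed genes. Standard errors of the log2 fold change in the set ran from 0.40 for Pdpn to 1.94 for Ccl21a.

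The 9 genes, the 5 pathway lists and the 7 marker lists were chosen with earlier results of these data known. Pathway genes named are the highest and lowest log2 fold change of each list among genes whose log2 CPM averaged 0 or more. Others (Ccbe1, Adamts3, Tbx1, Angpt2, Ccr7, Ccl19, Bnc1 and Synm) were named for their role or their call after their values were seen. Gene positions are from GENCODE M21 (GRCm38), in which all 9 identifiers have the same version. In each library, 0.00897% or less of the counts lay on identifiers without a symbol. With 4 mice per genotype, standard errors carry the spread between mice, while floors of 3 counts cover counting error only.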

Additional observations from a re-analysis of the deposited data

Results flagged for a closer look

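In 52 groups of 4 libraries (each lymphatic gene, named pathway gene and marker list in each genotype), the library farthest from its group was checked against Dixon's critical value at the 95% level. Ccl21a was the 1 result past it. Its log2 CPM was 6.09 in WT replicate 1 and -0.04 to 0.55 in the other WT libraries, and the gap was 0.904 of the whole range. Chance flags about 1 in 20 such groups, or 2.6 of the 52. The smooth muscle sum was 11.4 times its next highest value in the same library, and the part of smooth muscle tissue in the Ccl21a level was not tested.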

How the results depend on the processing

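The number of genes called between genotypes, 180 of 18174, was 793 with DESeq2, 756 with DESeq2 without WT replicate 1 (a setting chosen after seeing the data), 81 where every library had to hold 10 counts, and 81 to 167 when 1 library was left out. Of the lymphatic vessel genes, 0 were called by edgeR, and 0 whichever library was left out, while DESeq2 called 3 and, without WT replicate 1, 1. Of the pathway genes, 0 were called by edgeR, against 3 with DESeq2 and 0 with DESeq2 without WT replicate 1. The count was 1, Nfatc1, with DESeq2 size factors, library size only, at least 1 count in any library or at least 10 counts in every library. It was 0 to 1 when 1 library was left out. The cause was not tested.

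The replicate numbers did not pair the libraries (r of same-numbered deviations 0.269, -0.436, 0.340 and -0.159), and 2 of 8 libraries deviated most like the library of their own number. A replicate block gave 82 called genes, none of them in the set or the pathway lists, and -0.069 for Prox1.

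Leaving out 1 library gave log2 fold changes of -1.70 to 0.041 for Vegfc, -0.91 to 0.71 for Prox1, -2.20 to 0.89 for Reln, -1.40 to 0.059 for Klhl4 and -0.10 to 0.13 for Sphk2. Without WT replicate 1, DESeq2 gave 0.89 for Reln and 0.053 for Klhl4. Limma on the TPM values gave -0.0034 for Prox1 with a pseudocount of 1 and -0.061 with 0.1. Sphk2 was at 0.021 with DESeq2, 0.019 with its size factors, 0.017 with at least 1 count in any library, 0.056 by library size only and at 0.0018 with 10 counts in every library. The mean of log2 CPM in place of the sum covered only genes that passed the filter, 2 of 6 for mesothelium and 6 of 8 for macrophages. It gave 2.52 for mesothelium (exact permutation p = 0.0286) and -0.31 for macrophages. The 2 mesothelium genes went opposite ways, with log2 fold changes of 4.63 for Bnc1, also a gene of basal epithelium, and -0.63 for the other. Leaving out 1 library gave -0.14 to 0.39 for macrophages and -0.21 to 0.94 for lymphoid stroma. Among the settings of the 9 genes, 138 kept direction and side of the threshold, 10 turned direction and 4 became calls. For the 10 named pathway genes, 149 kept both, 12 turned and 9 became calls.

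Ccl21a, Reln and Mmrn1 could not be fitted where every library had to hold 10 counts, since they had 0 or 1 counts in a library. Outside WT replicate 1, Mmrn1 and Reln did not exceed 37 counts in a library, and Prox1 ran from 10 to 109 counts over all libraries. WT replicate 1 set the size of the differences of Ccl21a, Lyve1, Mmrn1 and Tek. Other differences moved without it as well. Flt4 went from -0.82 to -0.20, Vegfd from -2.10 to -1.12, Reln from -1.67 to 0.89 and Pdpn from 0.82 to 1.30.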
